A study of Mus musculus with 11 samples.

Results

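Levels of 10 mouse genes of fatty acid and branched-chain amino acid catabolism are described here across cardiac progenitor cells and C2C12 cells, out of 27567 genes named on the arrays. The 10, called the members below, were chosen by name with measured values in view, so their levels and the differences between groups are descriptions and carry no test. They are the regulators Ppargc1a and Ppara, the carnitine palmitoyltransferase Cpt1a, the dehydrogenase Acadl, the thioesterases Acot1 and Acot2, the kinase Pdk4, the branched-chain dehydrogenase subunits Bckdha and Bckdhb, and the secreted lipase inhibitor Angptl4. They were read by 14 probes, with 1 probe for 6 genes and more than 1 for the other 4. Of the 10, 6 were well above background on all 11 arrays, and 9 passed the filter that admitted a gene to the fits.

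Heart and skeletal muscle burn long-chain fatty acids in mitochondria. The fatty acid is activated to acyl-CoA, carried across the mitochondrial membrane as acylcarnitine and shortened by beta-oxidation, while thioesterases split acyl-CoA back into free acid and coenzyme A. The fatty acid receptor PPARalpha and its coactivator PGC-1alpha switch on many of these genes, and the pyruvate dehydrogenase kinases hold back glucose oxidation when fat is used. Branched-chain amino acids are also burned in mitochondria, after a transaminase and the branched-chain alpha-keto acid dehydrogenase complex have committed their carbon skeletons to breakdown.

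The KO-labelled cells are progenitors (called mesoangioblasts in the series design) from atrium, ventricle or aorta biopsies of dystrophic mice null for beta-sarcoglycan. The WT-labelled cells are the same kind of progenitor from the same regions of wild-type mice. Per the labels, KO progenitors become skeletal muscle fibres in culture and WT progenitors become beating cardiomyocytes. C2C12, a mouse myoblast line, was the control for muscle differentiation. The KO label was on 5 arrays, the WT label on 3, and C2C12 on 3. Arrays that differed by less than the noise between repeated spots were averaged and counted once, which left 3 KO-labelled, 3 WT-labelled and 2 C2C12 samples. Each KO-labelled or WT-labelled sample then stood for a different heart region. The series design speaks of biological triplicates, but which arrays go back to separate mice or cultures is not in the labels, and neither are age, passage or growth state. The p-values below therefore reflect only how far these samples differ among themselves, which can be technical, and between KO and WT they rest on differences among heart regions.

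Between 49.0 and 62.0% of probes per array gave a signal well above background, and precision is limited by the small number of arrays. The targeted gene Sgcb was not lower in the KO-labelled samples. Its brightest probe read 2.64, 2.99 and 2.34 in KO-labelled atrium, ventricle and aorta, against 2.07, 2.20 and 1.82 in WT-labelled atrium, ventricle and aorta, and a probe outside the deleted part would check nothing. The groups are called by their labels for this reason, and every direction below rests on them. The KO-labelled and WT-labelled samples also lay on different slides (slides 1 and 3 for KO, slide 2 for WT). C2C12 lay on all 3. With the slide as a block, KO-labelled and WT-labelled samples were compared only through C2C12, with 1 C2C12 sample on either side. Differences within a slide are therefore given where they bear on a gene. Slide 1 held KO ventricle and aorta, and slide 3 held KO atrium as well. The arrays that slides 1 and 3 have in common are those averaged above, so these slides are not separate checks. Some marker lists moved with the groups as well. The summed level of 8 skeletal muscle genes was 41.8 to 164 times the 75th percentile in KO-labelled samples. It was 0.562 to 2.72 times in WT-labelled samples and 92.0 to 223 times in C2C12. The sum of 8 cardiomyocyte genes was 0.242 to 0.349 times in KO-labelled samples, 0.407 to 0.689 times in WT-labelled samples and 0.422 to 0.577 times in C2C12. WT-labelled samples and C2C12 thus overlapped, and Myh6, Ryr2, Actn2 and Myl2 were not above background on any WT-labelled array. In KO minus WT, Nppa (-2.22) and Nppb (-2.06) were called lower and Tnni3 (1.3) higher. With the slide as a block the differences were -2.01, -1.46 and 0.65, and only the Nppa call stayed. Nppa was above background on 1 of 5 KO-labelled arrays and Tnni3 on 1 of 3 WT-labelled arrays. The sum of 6 macrophage and blood genes was 0.157 to 0.224 times the 75th percentile in KO-labelled samples, 1.2 to 2.34 times in WT-labelled samples and 0.21 to 0.233 times in C2C12, and Lyz2, at -0.03, 1.0 and 0.62 in WT-labelled atrium, ventricle and aorta and not above background elsewhere, made up most of the WT-labelled sum. Ptprc and Adgre1 were not above background in any group. C1qb was above background on all arrays and called lower in KO-labelled than in WT-labelled samples (-0.68, limma adjusted p = 0.0202, 0.878 with the slide as a block). Cd68 (0.18) and Csf1r (-1.4) were not called. The sum of 7 mesoangioblast and pericyte genes was 27.0 to 30.8 times in KO-labelled samples, 9.65 to 14.4 times in WT-labelled samples and 50.6 to 50.9 times in C2C12. That of 6 fibroblast genes overlapped between KO-labelled (188 to 213 times) and WT-labelled samples (134 to 217 times), with C2C12 at 215 to 246 times. Within that list Thy1 (at least 1290-fold), Pdgfra (-4.11) and Dcn (-4.16) were lower in KO-labelled than in WT-labelled samples and Col1a1 (0.77) and Col1a2 (0.91) higher. Of these only Thy1 stayed called with the slide as a block. The part of any of these lists in the members' differences was not tested. Of the mesoangioblast and pericyte markers, Alpl and Rgs5 were not above background on any KO-labelled or WT-labelled array. Of 8 adipocyte markers, Adipoq, Cidea, Lep and Cfd were not above background in any group. Plin1, Cidec and Retn were above it on at most 1 array per group. Fabp4 was above it on 2 of 5 KO-labelled, 3 of 3 WT-labelled and 3 of 3 C2C12 arrays. It was called lower in KO-labelled than in WT-labelled samples (-2.03, limma adjusted p = 0.0258, 0.49 with the slide as a block). In RNA from whole cultures, fewer cells of a type and less RNA per cell cannot be told apart.

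The 5 promoters below show the neighbouring thioesterase genes with different patterns, the kinase gene that was the 1 member called higher in KO-labelled samples, and the members that hold a nuclear receptor half-site. Each line is the 250 bases upstream of the RefSeq start on GRCm38.p6, read 5′ to 3′ on the gene's strand. The windows are chr12:84009252-84009501 (Acot1, plus strand), chr12:83987611-83987860 (Acot2, plus), chr6:5496279-5496528 (Pdk4, minus), chr19:3323051-3323300 (Cpt1a, plus) and chr9:83924887-83925136 (Bckdhb, plus, the first of its 2 starts in the table). Capitals mark the half-site AGGTCA, or TGACCT when it lies on the other strand.
Acot1: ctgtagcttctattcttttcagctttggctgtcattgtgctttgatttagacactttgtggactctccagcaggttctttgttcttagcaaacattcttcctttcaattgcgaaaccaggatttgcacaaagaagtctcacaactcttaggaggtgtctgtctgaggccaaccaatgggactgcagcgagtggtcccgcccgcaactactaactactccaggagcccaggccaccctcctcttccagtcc
Acot2: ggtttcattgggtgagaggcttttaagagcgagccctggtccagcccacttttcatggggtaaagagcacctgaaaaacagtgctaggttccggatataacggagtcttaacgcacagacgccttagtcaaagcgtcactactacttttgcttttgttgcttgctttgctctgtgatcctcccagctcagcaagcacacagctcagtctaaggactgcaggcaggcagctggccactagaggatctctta
Pdk4: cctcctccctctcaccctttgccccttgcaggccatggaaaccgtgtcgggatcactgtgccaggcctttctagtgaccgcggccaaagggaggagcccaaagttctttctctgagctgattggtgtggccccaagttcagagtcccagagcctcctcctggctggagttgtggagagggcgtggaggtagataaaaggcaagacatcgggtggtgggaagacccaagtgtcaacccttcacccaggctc
Cpt1a: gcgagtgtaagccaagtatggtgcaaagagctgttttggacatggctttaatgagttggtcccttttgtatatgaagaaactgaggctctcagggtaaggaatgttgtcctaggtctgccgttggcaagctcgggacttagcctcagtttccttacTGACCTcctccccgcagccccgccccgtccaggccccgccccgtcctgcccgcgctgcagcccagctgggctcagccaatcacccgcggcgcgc
Bckdhb: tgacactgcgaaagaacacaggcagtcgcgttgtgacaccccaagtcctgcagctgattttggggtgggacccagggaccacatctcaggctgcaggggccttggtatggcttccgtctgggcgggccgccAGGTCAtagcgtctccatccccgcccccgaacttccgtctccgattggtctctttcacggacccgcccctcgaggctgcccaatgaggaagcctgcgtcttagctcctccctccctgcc

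The half-site AGGTCA, searched on both strands, is the unit that nuclear receptors of the PPAR and RXR kind read in pairs. Of the 9 members with a promoter in the RefSeq table, 2 held it in these 250 bases, Cpt1a with its first base at -94 and Bckdhb at -119. These 9 have 10 windows in the table, and the window at the second Bckdhb start held no half-site. Over all 32851 promoters of the table, counted by window and not by gene, 14.0% held a half-site. The paired form, AGGTCANAGGTCA, was in none of the members' windows and in 0.0335% of all promoters. A match describes the letters only, and no match says only that the letters are not in this window.

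Levels below are log2 signals scaled so that 0 is the 75th percentile of the array. Levels of different probes cannot be set against each other. Positions given for probes come from the array's design file and refer to mm8. Ppargc1a encodes PGC-1alpha, the coactivator of mitochondrial biogenesis and fatty acid oxidation. Its brightest probe (chr5:51743906-51743965) read -5.39, -5.37 and -5.70 in KO-labelled atrium, ventricle and aorta, against -2.15, -1.81 and -2.22 in WT-labelled atrium, ventricle and aorta. C2C12 read -6.14 and -5.13. All 3 WT-labelled samples lay above all other samples, while the KO-labelled and C2C12 samples overlapped. The probe was well above background on 1 of 5 KO-labelled, 3 of 3 WT-labelled and 1 of 3 C2C12 arrays. As measured, KO minus WT was -3.43 (SE 0.18), with most KO-labelled arrays not above background, and normexp background correction gave -1.16. A second Ppargc1a probe (chr5:51745937-51745996) read -6.76, -5.63 and -6.79 in the KO-labelled regions, against -1.60, -1.07 and -1.87 in the WT-labelled regions, and -8.03 and -7.47 in C2C12. The WT-labelled samples were again highest. Here the KO-labelled samples also lay above C2C12, at 1 of 5 and 0 of 3 arrays above background. Since no C2C12 array was above it, the WT-labelled level was at least 16.2-fold higher than in C2C12.

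**Figure D1:**
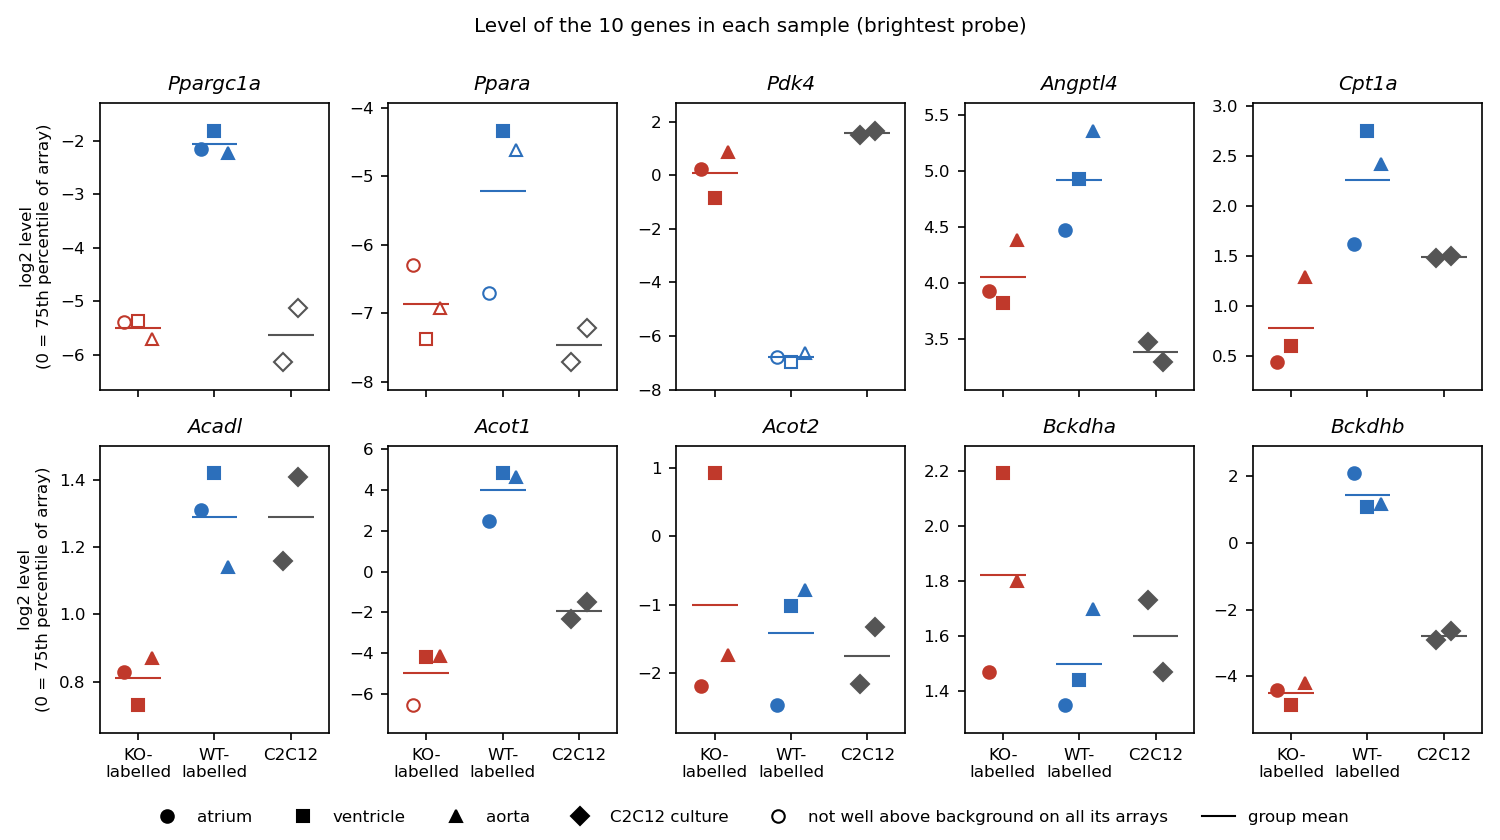
Log2 level of the brightest probe of each of the 10 genes (y axis, 0 is the 75th percentile of the array) in the 3 KO-labelled, 3 WT-labelled and 2 C2C12 samples. Marker shape gives the heart region, open markers are samples not well above background on all their arrays, and lines are group means. Ppargc1a, Acot1 and Bckdhb sit highest in the WT-labelled samples, and Pdk4 sits lowest there.

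Ppara encodes PPARalpha, the fatty acid sensing receptor of heart and liver. Its probe (chr15:85629291-85629350, 10 spots per array) read -6.29, -7.37 and -6.92 in KO-labelled atrium, ventricle and aorta. In WT-labelled atrium, ventricle and aorta it read -6.70, -4.33 and -4.61, with C2C12 at -7.72 and -7.21. It was well above background on 0 of 5 KO-labelled, 1 of 3 WT-labelled and 0 of 3 C2C12 arrays, the 1 being WT ventricle. Ppara was the member that did not pass the filter on dim probes, and no size of difference is given.

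Pdk4 encodes pyruvate dehydrogenase kinase 4, which phosphorylates and restrains pyruvate dehydrogenase and is a classical PPAR target. Its probe (chr6:5433441-5433500) read 0.23, -0.86 and 0.88 in KO-labelled atrium, ventricle and aorta, against -6.77, -6.99 and -6.62 in WT-labelled atrium, ventricle and aorta. In C2C12 it read 1.52 and 1.67. The groups did not overlap, with C2C12 highest and WT-labelled samples lowest. Pdk4 was not well above background on any WT-labelled array. On the signal as deposited, its level was at least 31.7-fold higher in KO-labelled than in WT-labelled samples. It was at least 90.4-fold lower in WT-labelled samples than in C2C12. Against C2C12 the KO-labelled samples differed by -1.51 (SE 0.45). On shared slides that difference was -1.52 on slide 1 and -1.42 on slide 3, while WT minus C2C12 on slide 2 was -8.46 as measured. With normexp, KO minus WT was 3.76 and WT minus C2C12 was -5.18. Both are smaller in size than the bounds above, which are 4.99 and 6.5 on the log2 scale.

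Angptl4 encodes angiopoietin-like 4, a secreted inhibitor of lipoprotein lipase that is induced by PPARs and by fasting. Its probe (chr17:33381815-33381874) read 3.93, 3.82 and 4.38 in KO-labelled atrium, ventricle and aorta. In WT-labelled atrium, ventricle and aorta it read 4.47, 4.93 and 5.36, with C2C12 at 3.47 and 3.29. The 3 groups did not overlap, with the WT-labelled samples highest and C2C12 lowest, but KO aorta at 4.38 and WT atrium at 4.47 lay side by side. The KO-labelled mean differed from the WT-labelled mean by -0.88 (SE 0.28) and from the C2C12 mean by 0.67 (SE 0.29). Within slides, KO minus C2C12 was 0.62 on slide 1 and 0.58 on slide 3, and WT minus C2C12 was 1.63 on slide 2.

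Cpt1a encodes carnitine palmitoyltransferase 1A, the rate-setting enzyme of fatty acid entry into mitochondria in most tissues outside muscle. Its brightest probe (chr19:3385374-3385433, 10 spots per array) read 0.44, 0.60 and 1.29 in KO-labelled atrium, ventricle and aorta, against 1.62, 2.75 and 2.42 in WT-labelled atrium, ventricle and aorta. C2C12 read 1.48 and 1.5, between the other groups. No groups overlapped, though WT atrium lay only just above C2C12. The KO-labelled mean was 2.80-fold lower than the WT-labelled mean (log2 difference -1.49, SE 0.36), and the difference was widest in ventricle, at -2.15, against -1.18 in atrium and -1.13 in aorta. The second probe (chr19:3384629-3384688) gave much the same regional differences, with -2.17 in ventricle, -1.14 in atrium and -1.25 in aorta. On shared slides, Cpt1a in KO-labelled samples was below C2C12 by -0.54 on slide 1 and -0.69 on slide 3, and in WT-labelled samples above it by 0.76 on slide 2. The promoter of Cpt1a, printed above, is 1 of the 2 with a half-site.

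Acadl encodes long-chain acyl-CoA dehydrogenase, which takes the first step of each beta-oxidation round on long chains. Its probe (chr1:66764307-66764366) read 0.83, 0.73 and 0.87 in KO-labelled atrium, ventricle and aorta. It read 1.31, 1.42 and 1.14 in WT-labelled atrium, ventricle and aorta. C2C12 read 1.16 and 1.41. The KO-labelled samples lay below all others and had the least spread (SD 0.07, n = 3), while WT-labelled and C2C12 samples overlapped. The difference was small, at -0.48 (SE 0.14) for KO minus WT and -0.47 (SE 0.15) for KO minus C2C12. With the slide as a block the first of these was -0.23.

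**Figure D2:**
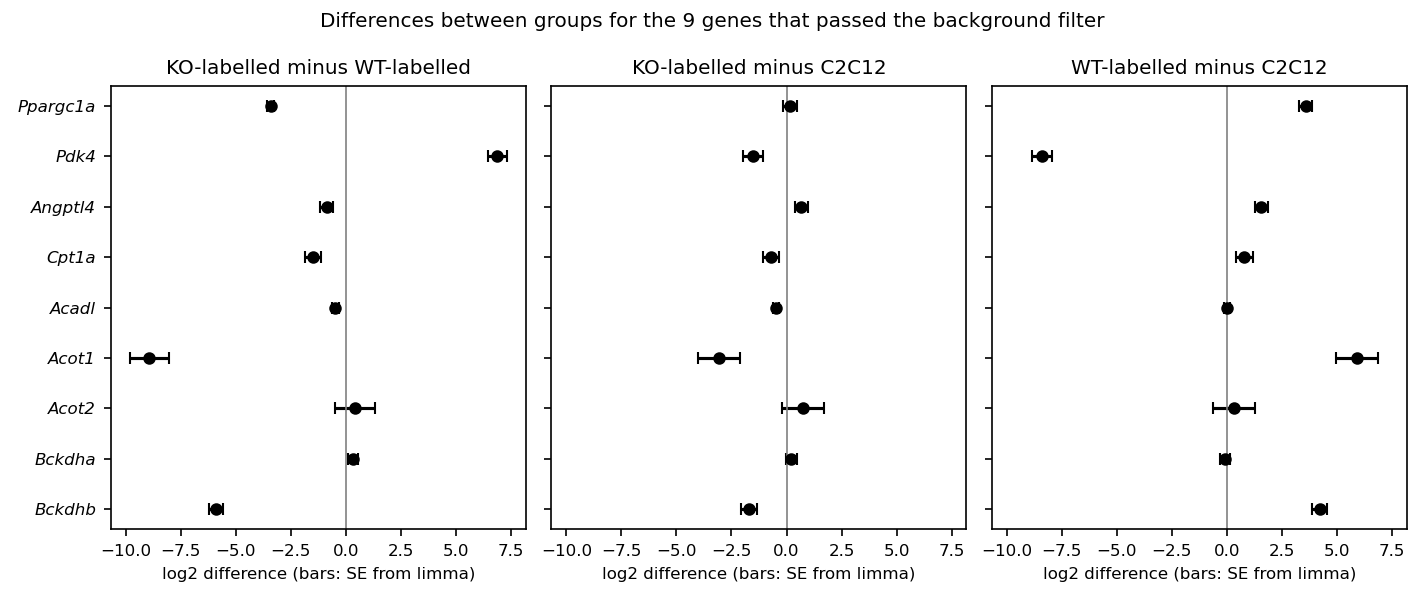
Log2 differences between group means (x axis, bars are the SE from limma) for the 9 genes that passed the filter, as KO-labelled minus WT-labelled, KO-labelled minus C2C12 and WT-labelled minus C2C12. Acot1, Bckdhb and Ppargc1a lie left of 0 and Pdk4 right of 0 in the KO minus WT panel; Pdk4 has only a bound in the WT-labelled samples, and Acot1 and Ppargc1a were not well above background on 1 and 4 of the 5 KO-labelled arrays.

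Acot1 and Acot2 encode the cytosolic and the mitochondrial long-chain acyl-CoA thioesterase of a gene cluster on chromosome 12, and Acot1 is a known PPARalpha target in mouse. Acot1 (probe chr12:84907250-84907309) read -6.55, -4.19 and -4.16 in KO-labelled atrium, ventricle and aorta, against 2.47, 4.82 and 4.64 in WT-labelled atrium, ventricle and aorta. C2C12 read -2.32 and -1.51. No groups overlapped: WT-labelled samples were highest, C2C12 intermediate and KO-labelled samples lowest. Of the KO-labelled arrays, 4 of 5 were well above background and the atrium array was not. As measured, the KO-labelled mean was 492-fold lower than the WT-labelled mean (log2 difference -8.94, SE 0.89), with KO atrium at its signal not above background, and with normexp the difference was -6.56. By region it was -9.01 in ventricle and -8.80 in aorta. WT atrium was the lowest of the WT-labelled samples. Against C2C12, Acot1 differed by -3.05 (SE 0.95) in KO-labelled and by 5.89 (SE 0.95) in WT-labelled samples. With normexp, KO minus C2C12 shrank to -1.22. On shared slides, KO minus C2C12 was -1.76 on slide 1, which held no KO atrium array. It was -2.73 on slide 3, which held the KO atrium array that was not above background. WT minus C2C12 was 5.49 on slide 2.

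Acot2 (probe chr12:84882869-84882928) lies 24.3 kb from the Acot1 probe and did not share its pattern. It read -2.19, 0.92 and -1.74 in KO-labelled atrium, ventricle and aorta, against -2.47, -1.02 and -0.78 in WT-labelled atrium, ventricle and aorta. C2C12 read -2.16 and -1.33. Every array was well above background and all 3 groups overlapped. KO ventricle stood above the other 7 samples, on both of its arrays (0.93 on slide 1 and 0.92 on slide 3). The mean difference of KO minus WT was 0.42 (SE 0.90) and its sign rested on single samples, since it was -0.54 without KO ventricle and -0.10 without WT atrium. By region the difference was 0.28 in atrium, 1.94 in ventricle and -0.96 in aorta. The probe sequences were not used here, so cross-hybridisation between the thioesterase paralogues was not tested.

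The branched-chain alpha-keto acid dehydrogenase has a decarboxylase core of alpha and beta subunits, encoded by Bckdha and Bckdhb. Bckdhb (brightest probe chr9:83918978-83919037) read -4.41, -4.86 and -4.20 in KO-labelled atrium, ventricle and aorta, against 2.07, 1.05 and 1.14 in WT-labelled atrium, ventricle and aorta. C2C12 read -2.92 and -2.65. The order was that of Acot1, with WT-labelled samples highest, C2C12 intermediate, KO-labelled samples lowest and no overlap. The KO-labelled mean was 60.1-fold lower than the WT-labelled mean (log2 difference -5.91, SE 0.33), with -6.48 in atrium, -5.91 in ventricle and -5.34 in aorta. With normexp it was -4.25. Against C2C12 the difference was -1.70 (SE 0.35) for KO-labelled and 4.21 (SE 0.35) for WT-labelled samples, and within slides -1.60, -1.56 and 4.07 on slides 1, 3 and 2. With normexp, KO minus C2C12 shrank to -0.79 and WT minus C2C12 was 3.45. A second Bckdhb probe, whose design position spans 1646 bases (chr9:83919063-83920708), read -5.36, -5.50 and -4.54 in the KO-labelled regions, against 2.05, 1.10 and 1.17 in the WT-labelled regions, and -3.08 and -2.82 in C2C12. It was well above background on 3 of 5 KO-labelled arrays.

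Bckdha, the alpha subunit, did not follow Bckdhb. Its brightest probe (chr7:25338835-25338894) read 1.47, 2.19 and 1.80 in KO-labelled atrium, ventricle and aorta, against 1.35, 1.44 and 1.70 in WT-labelled atrium, ventricle and aorta. C2C12 read 1.73 and 1.47. All groups overlapped, and KO minus WT was 0.32 (SE 0.22). The second probe (chr7:25342018-25342077) gave 0.31, 0.83 and 0.23 for KO minus WT in atrium, ventricle and aorta, against 0.12, 0.75 and 0.09 on the brightest. In both, KO ventricle was the highest sample.

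**Figure D3:**
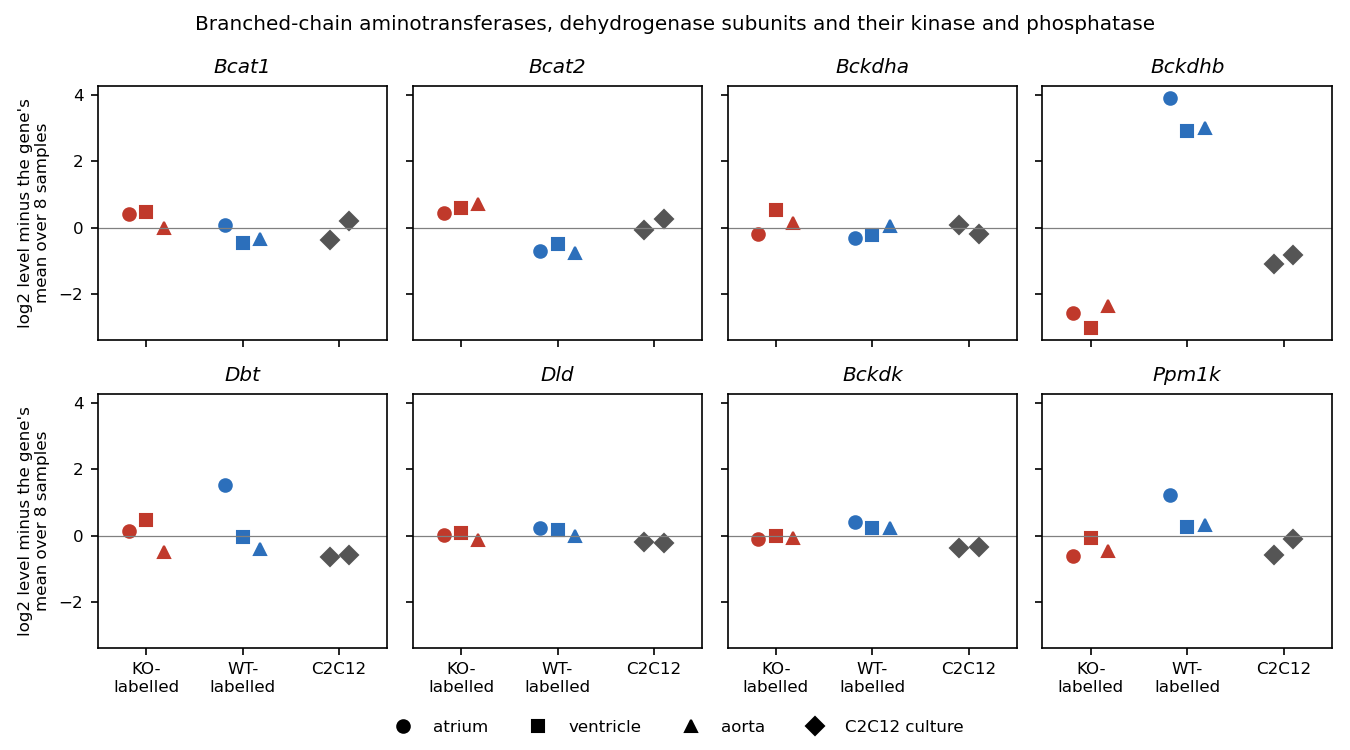
Log2 level of each gene minus its own mean over the 8 samples (y axis) for the branched-chain aminotransferases Bcat1 and Bcat2, the dehydrogenase subunits Bckdha, Bckdhb, Dbt and Dld, the kinase Bckdk and the phosphatase Ppm1k. Marker shape gives the heart region. Only the Bckdhb panel separates the groups by more than 2 log2 units.

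Read as a list, 1 of the 9 fitted members was called higher in KO-labelled than in WT-labelled samples (Pdk4) and 5 lower (Acot1, Ppargc1a, Cpt1a, Acadl and Bckdhb), at a limma adjusted p under 0.05 over all genes. Among all 15002 genes tested, 29.8% were called, 13.7% higher and 16.1% lower. The balance of 2058 higher and 2410 lower turned to 2234 and 1793 with median scaling, 1548 and 1245 with normexp, and 527 and 395 with the slide as a block. Nothing is read from the members' counts, since the same contrast was in view when they were chosen. Sample groups did not overlap for 7 of the 9, 1 higher and 6 lower, beside 49.3% of all genes (22.1% higher and 27.2% lower). The members' median difference was -0.88, beside -0.06 over all genes. Without KO atrium, KO ventricle, WT ventricle or WT aorta the members called were 1 higher and 3 lower, Cpt1a and Acadl being the ones lost. With the slide as a block they were Pdk4, Bckdhb and Ppargc1a, the last with a difference of -2.41. Acot1 was not called in that fit, with a difference of -8.13. With the region as a block the lower members were Acot1, Ppargc1a, Cpt1a, Bckdhb and Angptl4, so Angptl4 was gained and Acadl lost.

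For KO minus C2C12, 0 of the 9 were called, beside 1.25% of 15807 genes (0.664% higher and 0.588% lower). With every array as its own sample 4 were (Acadl, Acot1, Bckdhb and Pdk4). The groups did not overlap for 6 of the 9, 1 higher (Angptl4) and 5 lower, beside 37.9% of genes (17.4% higher and 20.5% lower). For WT minus C2C12, 4 were called higher (Acot1, Ppargc1a, Bckdhb and Angptl4) and 1 lower (Pdk4), beside 27.0% of genes (13.8% higher and 13.2% lower). Here the groups did not overlap for 6, 5 higher and 1 lower, beside 54.1% of genes (28.3% higher and 25.8% lower). The median difference of the members was -0.47 for KO minus C2C12, beside -0.03 over all genes, and 0.78 for WT minus C2C12, beside 0.03. These comparisons share samples, so their counts are not independent of each other. Nothing is read from them either, since values of all groups were in view when the members were chosen. Pdk4 was above background on no WT-labelled array and Ppargc1a on 1 of 3 C2C12 arrays, so both passed the filter mainly through the groups where they are high.

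By likeness of level over the 8 samples, which share slides and groups, Bckdhb was nearest to Stag2 (Pearson r 0.996) and Xylt2 (0.995). Cpt1a was nearest to Cstad (0.989) and Ttc7 (0.978), and Acot2 to App (0.979) and Dhrs7 (0.945). Angptl4 was nearest to an unannotated transcript and to Ezr (0.986), Acadl to Bsnd (0.983), and Bckdha to Acp6 (0.949) and D130051D11Rik (0.943). These are the highest values among all genes tested, given as a description.

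The other genes of these pathways were taken from 10 lists that do not hold the members. Of 158 such genes on the array, 133 were tested for KO minus WT, and 15 (11.3%) were called higher and 12 (9.02%) lower. Among all genes these shares were 13.7% and 16.1%. The median difference of -0.07 lay beside -0.06 for all genes. With median scaling in place of the 75th percentile the split was 20 higher and 8 lower, under which the calls over all genes also turned, as given above. With the region as a block the calls of Pdp1 (adjusted p = 0.059), Nrf1 (0.0709), Abcd3 (0.0678) and Gpihbp1 (0.0608) were lost. Of the genes named below other than Gpihbp1 and Med1, normexp ended the calls of Acad9 (adjusted p = 0.0523), Acat1 (0.0813) and Nrf1 (0.105). With no filter on dim probes those of Acad9 (0.07), Acat1 (0.0596), Eci1 (0.0791), Abcd3 (0.101) and Nrf1 (0.141) were lost. Median scaling ended those of Eci1 (0.0533) and Abcd3 (0.105), and the mean over a gene's probes those of Nrf1 (0.155) and Abcd3 (0.139). The counts moved with single samples: 9 were higher without KO aorta or WT aorta and 7 without KO atrium, while 27 were lower without WT atrium and 6 without KO atrium or WT ventricle. With the slide as a block 4 stayed higher (Fabp3, Pparg, Bcat2 and Ucp2) and 1 lower (Acsl1). Of 138 tested for KO minus C2C12, Acsl1 alone was called (-1.15, adjusted p = 0.0371), and the call was lost, with an adjusted p up to 0.263, without KO ventricle, KO atrium, WT ventricle, WT aorta or either C2C12 sample. For WT minus C2C12, 10 of 138 were higher and 23 lower. With normexp, and again with no filter on dim probes, the calls of Slc22a5 and Pcca in WT minus C2C12 were lost. So was that of Acsl1 in KO minus C2C12.

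Among the partners of Ppara and Ppargc1a, 4 of 19 were called higher in KO-labelled samples and 0 lower. Pparg, the adipogenic PPAR, read 1.41, 1.06 and 1.90 in KO-labelled atrium, ventricle and aorta, against -3.16, -3.12 and -3.47 in WT-labelled atrium, ventricle and aorta, with C2C12 at 1.08 and 1.56. The difference of 4.71 (SE 0.25, adjusted p = 8.95e-05) ran opposite to that of Ppargc1a. Rxra (-0.44, adjusted p = 0.146), Esrra (0.23, adjusted p = 0.552) and Ppargc1b (0.21, adjusted p = 0.631) were not called, and Ppard was above background on too few arrays to be tested. The calls of Med1, a Mediator subunit (1.14, adjusted p = 0.0158), and Nrf1, nuclear respiratory factor 1 (0.52, adjusted p = 0.0345) were each lost on leaving out single samples (adjusted p up to 0.0597 and 0.126), KO aorta, KO atrium, WT ventricle and WT aorta for both and KO ventricle for Med1. Over all its probes Med1 differed by 0.12 (adjusted p = 0.762).

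Around Cpt1a, 3 of 13 genes of fatty acid uptake and activation were higher in KO-labelled samples and 2 lower. Fabp3, the heart-type fatty acid binding protein, read 0.44, 0.67 and 0.34 in KO-labelled atrium, ventricle and aorta, against -5.96, -5.20 and -6.37 in WT-labelled atrium, ventricle and aorta, where 1 of 3 arrays was above background (adjusted p = 6.99e-05). The fatty acid transporter Slc27a1 was higher by 2.59 (adjusted p = 0.00109) and the acyl-CoA synthetase Acsl1 lower (-2.18, adjusted p = 0.000356). Its relative Acsl6 was at least 4.63-fold lower in WT-labelled samples than in C2C12 (adjusted p = 0.0189, up to 0.121 without either C2C12 sample or WT ventricle). Of 7 genes of the carnitine shuttle, the brain isoform Cpt1c (-3.05, adjusted p = 0.0078) and the carnitine acetyltransferase Crat (-1.0, adjusted p = 0.0133, 0.0523 without KO atrium) were lower. The muscle isoform Cpt1b (0.47, adjusted p = 0.0644) and Cpt2 (-0.54, adjusted p = 0.427) were not called in KO minus WT. The carnitine transporter Slc22a5 was lower in WT-labelled samples than in C2C12 (-0.62, adjusted p = 0.0192, up to 0.126 without either C2C12 sample or WT aorta).

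Around Acadl, 2 of 17 genes of mitochondrial beta-oxidation were called. Acad9 was higher (0.67, adjusted p = 0.0157, up to 0.0705 without KO aorta or KO atrium) and the enoyl-CoA isomerase Eci1 lower (-0.75, adjusted p = 0.0257, up to 0.0876 without KO aorta, KO atrium, WT ventricle or WT aorta). The dehydrogenases Acadvl (-0.21, adjusted p = 0.333) and Acadm (-0.16, adjusted p = 0.495) and the trifunctional subunit Hadha (-0.28, adjusted p = 0.166) were not called. In the peroxisome list of 16, the racemase Amacr was higher (2.18, adjusted p = 0.00264) and the transporter Abcd3 lower (-0.96, adjusted p = 0.0486, up to 0.131 without any one of the KO-labelled samples, WT ventricle or WT aorta). Of 7 other thioesterases, Acot11 was lower in KO-labelled samples (-2.30, adjusted p = 0.00163), the direction of Acot1. Acot6, which lies in the chromosome 12 cluster in mouse, was at least 2.01-fold lower in WT-labelled samples than in C2C12 (adjusted p = 0.00463), a call lost with normexp (-0.93, adjusted p = 0.171).

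Around Bckdha and Bckdhb, 3 of 26 branched-chain genes were higher in KO-labelled samples and 2 lower. The mitochondrial transaminase Bcat2 was higher by 1.23 (adjusted p = 0.00194) and the downstream thiolase Acat1 by 0.75 (adjusted p = 0.0157, up to 0.0649 without KO ventricle, KO atrium or WT aorta), while the epimerase Mcee was lower (-0.90, adjusted p = 0.0106). The other subunits and regulators of the complex were not called in KO minus WT, with Dbt at -0.32 (adjusted p = 0.696), Dld at -0.15 (adjusted p = 0.46), the kinase Bckdk at -0.35 (adjusted p = 0.087) and the phosphatase Ppm1k at -0.98 (adjusted p = 0.056). The transaminase Bcat1 differed by 0.53 (adjusted p = 0.114). Pcca, a propionyl-CoA carboxylase subunit, was lower in WT-labelled samples than in C2C12 (-0.83, adjusted p = 0.0373, up to 0.167 without KO aorta, KO atrium, WT aorta or either C2C12 sample).

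Around Pdk4, 1 of 10 genes of pyruvate dehydrogenase was called, the phosphatase Pdp1, which reverses the action of the kinases (-1.28, adjusted p = 0.0184, 0.0521 without WT ventricle). The sister kinases Pdk1 (0.51, adjusted p = 0.607) and Pdk2 (-0.15, adjusted p = 0.618) were not called. Among 13 other PPAR-responsive lipid genes, 3 were higher in KO-labelled samples and 1 lower. The mitochondrial carrier Ucp2 (adjusted p = 0.000109) was higher by a factor of at least 14.3. The hormone gene Fgf21 was higher by 5.66 (adjusted p = 0.0305, up to 0.0785 without KO ventricle, KO atrium or WT aorta), with 2 of 3 WT-labelled arrays above background. Acacb, which makes the malonyl-CoA that inhibits carnitine palmitoyltransferase, was lower (-4.06, adjusted p = 0.00549), with 3 of 5 KO-labelled arrays above background. The monoglyceride lipase gene Mgll was lower in WT-labelled samples than in C2C12 (-5.32, adjusted p = 0.0249, up to 0.123 without either C2C12 sample). Beside Angptl4, lipoprotein lipase itself (Lpl) was not called in KO minus WT (0.20, adjusted p = 0.761). Gpihbp1, which anchors it, was lower (-0.62, adjusted p = 0.0217, up to 0.0854 without KO aorta, KO atrium or WT ventricle). The Gpihbp1 call was also lost with normexp (-0.07, adjusted p = 0.882), median scaling (adjusted p = 0.0585) and no filter on dim probes (adjusted p = 0.0911), and the difference was 0.14 with the slide as a block.

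**Figure D4:**
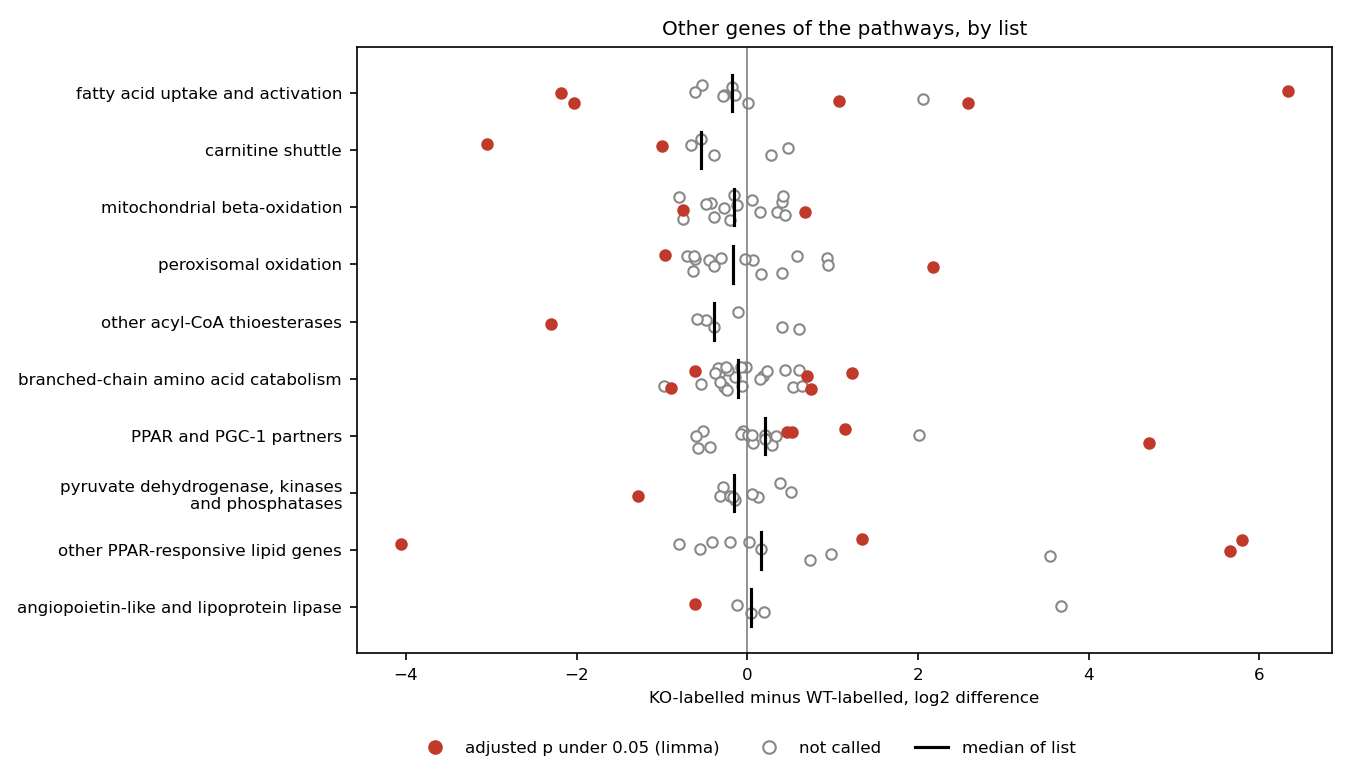
Log2 difference of KO-labelled minus WT-labelled samples (x axis) for each of the 133 tested genes of the 10 pathway lists outside the members, 1 row per list. Filled points passed an adjusted p of 0.05 in limma (15 higher, 12 lower), open points did not, and bars are list medians, which stay within 1 log2 unit of 0.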

How the data were processed

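RNA was hybridised to 11 Agilent 1-colour (Cy3) arrays. The intensity per spot, as deposited, was extracted with Agilent Feature Extraction 9.5.3.1 according to the submitters' processing notes. Background subtraction and spatial detrending are recorded in the headers, and probe positions are on mm8, per the file headers. A series-wide table of log2 values was also deposited by the authors. They equalled log2 of the processed signal within 0.01 for 99.7 to 99.8% of probes, with column medians of 5.45 to 5.77, so it carries no further scaling or centring.

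Control and outlier spots were left out, repeated spots averaged, and log2 processed signal was scaled to each array's 75th percentile. Probe names were updated through a RefSeq gene table of GRCm38.p6, by accession for 24348 of 41121 probes, by symbol for 6293 and by synonym for 2419, and 8061 kept their name. In 3 pairs of arrays (KO ventricle, KO aorta and C2C12, each on slides 1 and 3) the difference was 0.589 to 0.703 of spot noise, against at least 2.55 in other pairs. Each pair was averaged. The brightest probe per gene, well above background on at least 3 arrays, was fitted by lmFit and eBayes of limma 3.58.1 (R 4.3.3), with Benjamini-Hochberg adjustment over all genes. KO minus WT used the 6 heart samples and the C2C12 comparisons all 8. A group with no array above background gives a bound, "at least N-fold", which holds for the processed signal and not for normexp. The dim group then enters, per array, at its measured signal or at the lowest signal called well above background, whichever is higher. The fits were tested on simulated data.

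The members, the gene and marker lists and the rule for naming genes were chosen with earlier results of these data known. The rule named the members, up to 3 called genes per pathway list for KO minus WT, up to 2 for the C2C12 comparisons, and fixed key partners. A gene that the rule names is not reported here. Ppm1k and the Acsl1 value for KO minus C2C12 were added after their values were seen. Alternatives changed background correction, scaling, joining, filter, probe choice, slide, region and each sample in turn. Tables and plots used Python 3.11.15, pandas 2.3.3 and matplotlib 3.10.9.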

Additional observations from a re-analysis of the deposited data

Results flagged for a closer look

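Acot2 differed in its KO minus WT values between heart regions. The difference was 1.94 in ventricle and -0.96 in aorta, so ventricle less aorta was 2.90 on the log2 scale, and the sign was opposite in the 2 regions. Each region held 1 KO-labelled and 1 WT-labelled sample after joining, so the difference between regions was not tested. The KO ventricle level was 0.93 and 0.92 on its 2 arrays.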

How the results depend on the processing

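For KO minus WT, the 4468 genes called became 2793 with normexp background correction and 922 with the slide as a block, and 2734 to 6144 on leaving out single samples (2957 without KO aorta, 2952 without WT aorta, 2734 without KO atrium). For KO minus C2C12, the 198 became 45 with normexp, 1628 with every array as its own sample, 99 with no filter on dim probes and 27 with the slide block. They ran from 18 without the first C2C12 sample to 449 without WT atrium, with 27 without the second C2C12 sample, 67 without KO atrium and 96 without WT aorta. For WT minus C2C12, the 4265 became 2499, 6665 and 2286 with normexp, every array and the slide block, and 2286 to 5809 without single samples (2286 and 2398 without either C2C12 sample). Of pathway genes, 15 were higher, becoming 29 with every array, 9 with no filter and 4 with the slide block (7 to 22 without single samples). The 12 lower became 27 and 1 with every array and the slide block (6 to 27 without single samples). The higher share of calls over all genes in KO minus C2C12 was 53.0%, or 68.9% with normexp. The median scaling moved the median KO minus WT difference of all genes to 0.05, against -0.056. The causes of these changes were not tested.

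Of 450 member differences recomputed, 419 kept their direction and moved by less than the spread between replicates, 23 moved further and 8 reversed. The reversed ones were small: Acot2 in KO minus WT without KO ventricle (-0.54) or WT atrium (-0.10), in KO minus C2C12 without KO ventricle (-0.22), and in WT minus C2C12 with the slide block or without the first C2C12 sample (-0.09 each). Leaving out single samples, Acot2 ran up to 1.01, 1.34 and 0.85 in the same 3 comparisons. Ppargc1a in KO minus C2C12 reversed without the first C2C12 sample (-0.36, against 0.65 without the second), and Bckdha in WT minus C2C12 with the slide block or without that sample (0.03 each). In WT minus C2C12 the slide block and the fit without the first C2C12 sample are the same computation. Each reversal there was therefore counted under both settings. With normexp, which keeps an offset of 50, KO minus WT was -6.56 for Acot1, -1.16 for Ppargc1a, 3.76 for Pdk4 and -4.25 for Bckdhb. Of 1426 values of named pathway genes, 136 lost and 16 gained a call, and Gpihbp1 reversed with the slide block (0.14). Sign changes of values not called under either setting were not counted. The slide block ended 27 of these calls, and those against C2C12 were lost again, by the same computation, on leaving out a C2C12 sample. The titles carry no replicate numbers shared between groups. The fit with the heart region as a block, which sets KO-labelled against WT-labelled samples of the same region, called 1742 genes higher and 1910 lower. Signals near background limit Ppara, Ppargc1a and Pdk4, and the KO-labelled levels of Acot1 and Bckdhb.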
